A study of Mus musculus with 37 samples.

Results

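The genes described here encode enzymes that process foreign compounds, and were chosen by symbol alone: cytochrome P450 genes named Cyp1 to Cyp4, glutathione S-transferases (Gst), UDP-glucuronosyltransferases (Ugt1a and Ugt2), sulfotransferases (Sult), flavin monooxygenases (Fmo), carboxylesterases (Ces) and the epoxide hydrolases Ephx1 and Ephx2. Of the 19938 mouse genes with a probe set of their own, 129 matched. They comprised 65 P450 genes, 17 glutathione S-transferases, 16 sulfotransferases, 16 carboxylesterases, 8 UDP-glucuronosyltransferases, 5 flavin monooxygenases and 2 epoxide hydrolases. Of these, 3 genes were set aside because a replicate with high liver markers carried them, which left 126 for the counts. The same replicate was also high in markers of esophagus and upper airway. A further 17 probe sets were shared by several of these genes and were not used.

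RNA was measured on 1-colour microarrays in whole right lungs of C57BL/6J (B6) mice on embryonic days E15.5 to E18.5, daily, and on the day of birth (PN0), and of A/J mice at the same times and on the 2 days that followed E18.5, E19.5 and E20.5. A/J mice carry their litters about a day longer, so that PN0 lungs of B6 were younger from conception than PN0 lungs of A/J. Each of the 12 groups of strain and time had 3 replicates, and a replicate was 1 litter with the lungs of 3 male pups pooled. No group was treated or genetically modified, and the study asked how lung maturation proceeds in strains of different gestational length.

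Enzymes of foreign compound metabolism work in successive steps. P450s and flavin monooxygenases oxidise a compound, esterases and epoxide hydrolases split it with water, and transferases then attach glutathione, sulfate or glucuronic acid, which makes the product more soluble. The liver holds most of this capacity in the adult. In the lung it lies mainly in club cells, which are airway secretory cells, and in the surfactant-making type II cells. Because whole lungs were measured, fewer cells of a type and less RNA per cell cannot be told apart.

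Values are log2 signals of a probe set, so that a difference of 1 is a 2-fold difference, and they compare 1 probe set between groups, not different genes. Groups were called different where limma's adjusted p was under 0.05 and the size at least 1.5-fold. Change over time was called at an adjusted p under 0.01 in limma's F test and at least 2-fold between the highest and the lowest time. Array medians lay between 6.34 and 6.54. The mean of 16 liver markers was at least 1.5-fold above the other replicates of its group in 4 of the 36 replicates, namely replicate 1 of B6 at E15.5 and E16.5, replicate 1 of A/J at E15.5 and replicate 2 of A/J at E19.5. By the same rule, markers of esophagus and upper airway were high in replicate 2 of A/J at E19.5 and at PN0. The rule does not mark groups in which several replicates are high. Their mean was 7.13 and 7.05 in replicates 2 and 3 of A/J at E20.5, against 5.75 in replicate 1. It was 6.84 to 7.11 in A/J at E18.5 and 7.03 in replicate 3 of B6 at E17.5. The type II cell markers, a check of the labelled tissue, were bright, and their mean over 10 genes was 11.7 to 11.8 in B6 at PN0 against 8.14 to 8.44 at E15.5, and 11.7 in A/J at PN0 against 8.06 to 8.5 at E15.5.

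Between E15.5 and PN0 a minority of the enzyme genes rose, and nearly all that changed rose. In B6, 24 of 126 were higher at PN0 (19.0%, beside 12.7% of all 21789 probe sets tested) and 1 was lower (0.794%, beside 13.4%). In A/J, 25 were higher (19.8%, beside 13.7%) and 2 were lower (1.59%, beside 11.8%). Of the 126 genes, 78 gave mean signals below the 25th percentile of the tested probe sets, where a fall has little room to show. The part of weak signals in the scarcity of falls was not tested. The median difference of the 126 genes was 0.12 in B6, against -0.0033 over all probe sets, and 0.04 in A/J, against -0.04. The strains shared 22 of the higher genes, which is 91.7% of those in B6 and 88.0% of those in A/J. Cyp3a13 and Gsta4 were called higher in B6 alone, and Cyp2j9, Fmo4 and Gstp3 in A/J alone. Every PN0 replicate lay above every E15.5 replicate in 41 of the 126 genes in B6 (32.5%, beside 27.8% of all probe sets) and in 31 in A/J (24.6%, beside 27.0%). Without the 4 replicates rich in liver markers the counts of PN0 against E15.5 were the same in both strains, 24 and 1 in B6 and 25 and 2 in A/J.

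**Figure D1:**
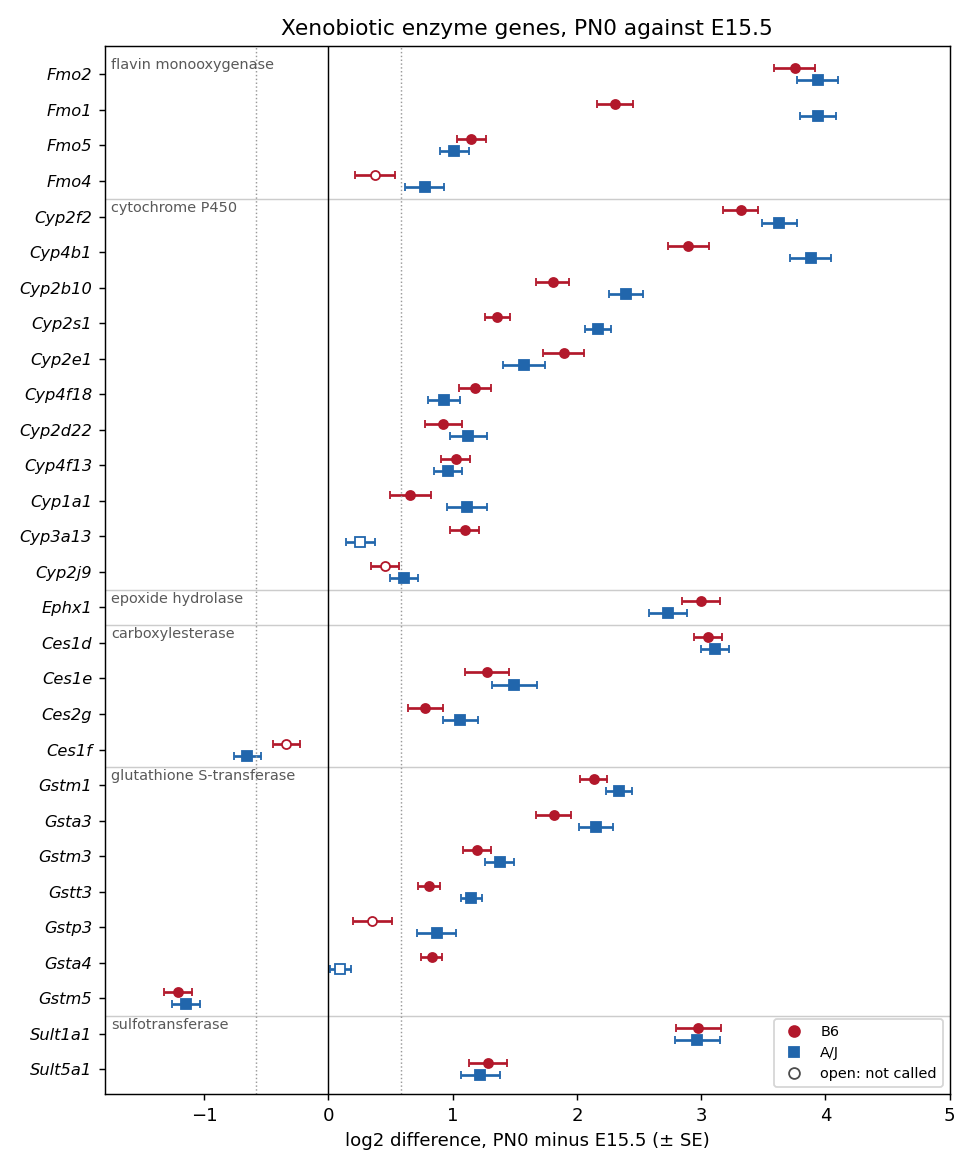
Log2 difference between PN0 and E15.5 (± SE) of each gene called in either strain, grouped by enzyme family, with B6 as red circles above A/J as blue squares. Open symbols were not called, dotted lines mark 1.5-fold, and the points run from Gstm5 at -1.21 in B6 to Fmo1 and Fmo2 at 3.94 in A/J.

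Flavin monooxygenases held the largest rise. Fmo2, the main flavin monooxygenase of adult lung in most mammals, read 11.56, 11.61 and 11.77 in B6 at PN0, against 7.84, 8.18 and 7.66 at E15.5. In A/J it read 11.95, 11.46 and 11.56 at PN0, against 7.28, 7.93 and 7.95 at E15.5. The replicates of PN0 lay far above those of E15.5 in both strains. The difference was 3.75 in B6 (SE 0.17, 13.5-fold, limma's adjusted p = 3.4e-18) and 3.94 in A/J (SE 0.17, 15.3-fold, adjusted p = 9.2e-19). Most of it was in place early, since Fmo2 already differed from E15.5 by 3.64 in B6 and 3.98 in A/J at E17.5.

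Fmo1, which oxidises nitrogen and sulfur compounds and in the human is the fetal liver form, read 9.75, 9.60 and 9.93 in B6 at PN0, against 7.40, 7.95 and 7.01 at E15.5. The A/J readings were 11.44, 11.32 and 11.43 at PN0, against 7.33, 7.33 and 7.71 at E15.5. The groups did not overlap in either strain, and the PN0 replicates of A/J all lay above those of B6. Fmo1 was higher by 2.31 in B6 (SE 0.14, adjusted p = 9.2e-15) and by 3.94 in A/J (SE 0.14, adjusted p = 4.2e-20). Fmo5 rose by 1.15 in B6 and 1.01 in A/J. Fmo4 rose by 0.77 in A/J (adjusted p = 0.00012), a call that was lost without replicate 1 of A/J at E15.5, and its difference in B6 was 0.38 (adjusted p = 0.05). Fmo9 differed by 0.09 and 0.01 and was not called.

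Of 64 P450 genes, 10 rose in each strain (15.6%, close to the share of all probe sets that rose) and none was called lower. The largest rises belonged to Cyp2f2, an enzyme of club cells known for activating naphthalene, and Cyp4b1, which hydroxylates fatty acids and activates several lung toxicants. Cyp2f2 read 11.54, 11.78 and 12.02 in B6 at PN0, against 8.76, 8.65 and 7.98 at E15.5. In A/J it read 12.43, 12.38 and 12.45 at PN0, against 8.70, 8.76 and 8.91 at E15.5. There was no overlap, and the difference was 3.32 in B6 (SE 0.14, 9.96-fold, adjusted p = 8.1e-19) and 3.63 in A/J (SE 0.14, 12.4-fold, adjusted p = 8.0e-20). Cyp4b1 read 9.78, 9.70 and 9.76 in B6 at PN0, against 6.98, 6.69 and 6.88 at E15.5. A/J lungs gave 10.52, 10.58 and 10.65 at PN0, against 6.50, 6.76 and 6.85 at E15.5. It was again free of overlap and higher by 2.90 in B6 (SE 0.16, adjusted p = 9.0e-16) and 3.88 in A/J (SE 0.16, adjusted p = 9.2e-19).

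Among the other P450 genes, Cyp2b10, an inducible enzyme of liver that responds to phenobarbital, rose by 1.80 in B6 and 2.40 in A/J. Cyp2s1, an enzyme of epithelia, rose by 1.36 in B6 and 2.17 in A/J, and Cyp2e1, which oxidises ethanol and small solvents, by 1.89 and 1.57. Cyp4f18 rose by 1.18 in B6 and 0.93 in A/J, Cyp4f13 by 1.02 and 0.96, and Cyp2d22 by 0.92 and 1.13. Cyp1a1, the classical target of the aryl hydrocarbon receptor, rose by 0.66 in B6 and 1.12 in A/J. Cyp2j9, which oxidises arachidonic acid, rose by 0.61 in A/J, a call that was lost without replicate 3 of A/J at E15.5 or replicate 1 or 2 of A/J at PN0, and differed by 0.45 in B6 (adjusted p = 0.0011), under 1.5-fold. Without replicate 3 of B6 at PN0 the difference of Cyp1a1 in B6 was 0.46 and not called. None of the 13 Cyp2c genes, a large group of liver enzymes, was called between E15.5 and PN0. Differences ran from -0.14 (Cyp2c55) to 0.30 (Cyp2c67) in B6 and from -0.21 (Cyp2c37) to 0.24 (Cyp2c68) in A/J. All but Cyp2c23 and Cyp2c37 gave mean signals below the 25th percentile of the tested probe sets, so that no contrast with other P450 genes is drawn. Cyp2c23 was above E15.5 before birth in A/J, by 0.76 at E18.5, 0.77 at E19.5 and 0.65 at E20.5.

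Hydrolases rose through a few genes. Ephx1, the microsomal epoxide hydrolase, which opens epoxides that P450s form, read 9.15, 9.55 and 9.46 in B6 at PN0, against 6.45, 6.81 and 5.90 at E15.5. A/J lungs gave 9.11, 9.08 and 9.11 at PN0, against 6.39, 6.45 and 6.27 at E15.5. The groups stood apart, by 3.00 in B6 (SE 0.15, adjusted p = 8.4e-17) and 2.73 in A/J (SE 0.15, adjusted p = 5.9e-16). Ephx2, the soluble enzyme of lipid epoxides, differed by -0.22 in B6 (adjusted p = 0.14) and -0.35 in A/J (adjusted p = 0.017) and was not called, as both were under 1.5-fold. Ces1d, a carboxylesterase that the lung is known to express, read 11.13, 11.26 and 11.27 in B6 at PN0, against 8.14, 8.36 and 8.0 at E15.5. The A/J readings were 10.95, 11.18 and 11.22 at PN0, against 7.69, 8.14 and 8.19 at E15.5. PN0 lay above E15.5 in every replicate, with a difference of 3.05 in B6 (SE 0.11, adjusted p = 5.6e-20) and 3.11 in A/J (SE 0.11, adjusted p = 3.3e-20). Ces1e and Ces2g rose in both strains, by 1.28 and 0.78 in B6 and by 1.5 and 1.06 in A/J. Ces1f was lower in A/J by -0.65 (adjusted p = 4.7e-06), a call that was lost without replicate 2 of A/J at E15.5 or replicate 2 of A/J at PN0, and its difference in B6 was -0.34 (adjusted p = 0.0085).

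Of the conjugating enzymes, 2 of 16 sulfotransferases rose in each strain (12.5%, close to the share of all probe sets that rose). Sult1a1, which attaches sulfate to phenols, read 9.18, 8.56 and 9.0 in B6 at PN0, against 5.84, 6.04 and 5.93 at E15.5. A/J lungs gave 8.61, 8.45 and 8.38 at PN0, against 5.37, 5.61 and 5.55 at E15.5. It rose by 2.98 in B6 (SE 0.18, adjusted p = 4.0e-15) and 2.97 in A/J (SE 0.18, adjusted p = 3.6e-15), with no overlap. Sult5a1, a sulfotransferase with no well established substrate, rose by 1.28 and 1.22, and none of the other 14 sulfotransferases was called. The 8 UDP-glucuronosyltransferases, all of the Ugt2 group, were not called in either strain, and at an unadjusted p under 0.05 in limma there was 1 in B6, Ugt2b34, and 0 in A/J. Their differences lay between -0.29 (Ugt2b34) and 0.20 (Ugt2b5) in B6 and between -0.21 (Ugt2b34) and 0.15 (Ugt2a3) in A/J. All 8 gave mean signals below the 25th percentile of the tested probe sets, so that no contrast between the families is drawn.

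Glutathione S-transferases moved both ways. Gstm1, a mu class enzyme, read 9.95, 9.78 and 9.88 in B6 at PN0, against 7.75, 7.86 and 7.60 at E15.5. In A/J it averaged 10.04 ± 0.04 at PN0 (SD, n = 3), against 7.63, 7.81 and 7.65 at E15.5. It rose without overlap by 2.13 in B6 (SE 0.11, adjusted p = 5.4e-17) and 2.34 in A/J (SE 0.11, adjusted p = 5.2e-18). Gstm5, another mu class enzyme and the one gene lower in both strains, read 7.77, 7.70 and 7.73 in B6 at PN0, against 9.05, 8.97 and 8.81 at E15.5. A/J lungs gave 7.88, 8.08 and 7.86 at PN0, against 9.26, 9.18 and 8.82 at E15.5. Its replicates did not overlap, and it fell by 1.21 in B6 (SE 0.11, adjusted p = 1.1e-10) and by 1.15 in A/J (SE 0.11, adjusted p = 3.4e-10) on the log2 scale. Gsta3, an alpha class enzyme, rose by 1.81 in B6 and 2.15 in A/J, and Gstt3 by 0.81 and 1.15. Gstm3 rose by 1.19 and 1.38 on its brighter probe set, whereas its second probe set gave 0.58 in B6 (adjusted p = 0.0071) and 0.17 in A/J (adjusted p = 0.46), so that its size is uncertain. Gstp1, the pi class enzyme, differed by -0.32 and -0.31 and was not called at PN0, although it was lower at E17.5 by -0.71 in B6 and -0.76 in A/J.

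**Figure D2:**
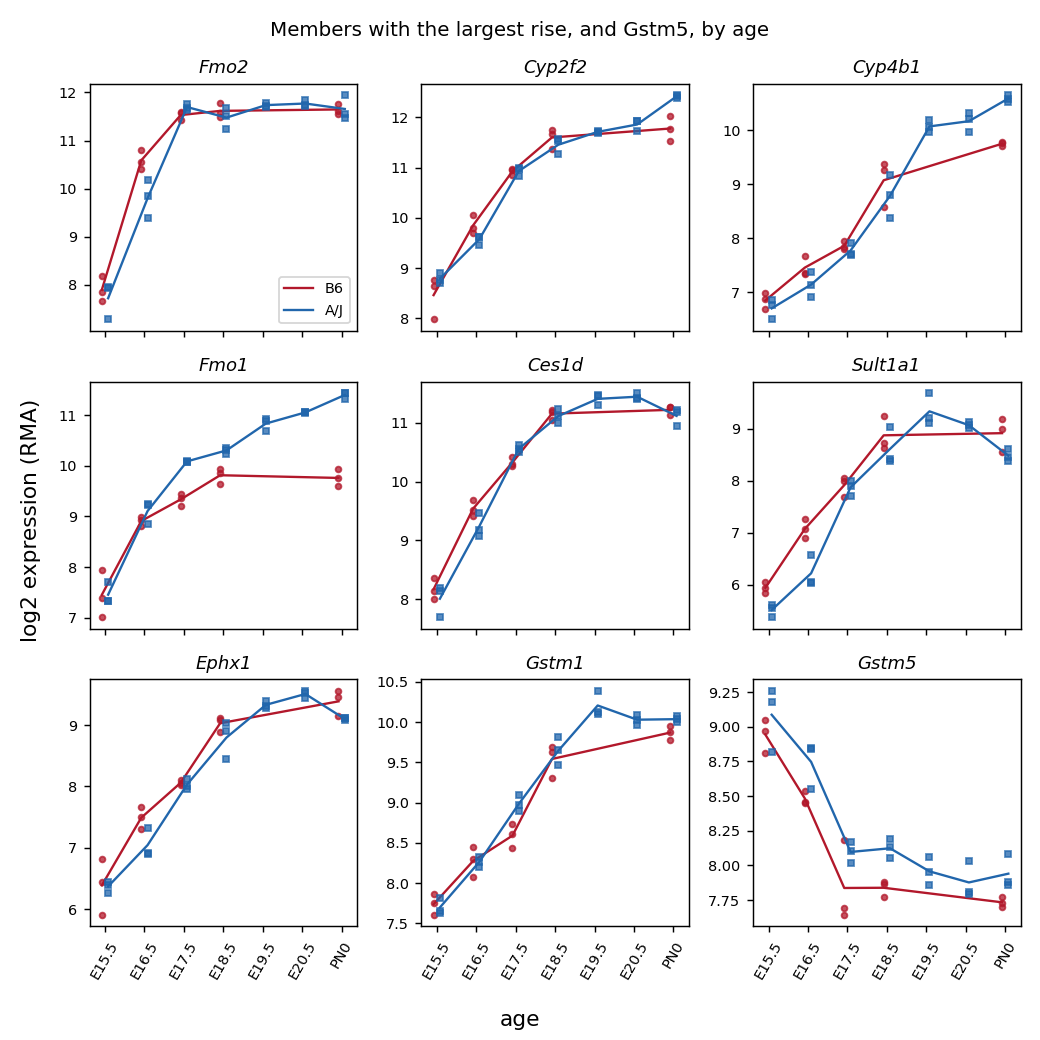
Log2 expression by age of the 8 genes with the largest rise and of Gstm5, with replicates as points (B6 red circles, A/J blue squares) and lines through the group means. Ages are evenly spaced and not to scale, B6 was not sampled at E19.5 and E20.5, and Fmo2 lies near 11.5 by E17.5 whereas Cyp4b1 reaches 9.75 in B6 and 10.58 in A/J at PN0.

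The rising genes first passed the thresholds against E15.5 at different ages. A large rise passes them sooner than a small rise of the same course, so these ages do not show when a rise began. Over all times 20 genes changed in B6 (15.9%, beside 14.4% of all probe sets) and 25 in A/J (19.8%, beside 17.8%). These shares were close to those of all probe sets. The strains shared 19 of these genes, and Gstm5 was the only one of the 19 that went down. In B6 the first time that differed from E15.5 was E16.5 for 8 of the rising genes, E17.5 for 6, E18.5 for 4 and PN0 for 1. In A/J it was E16.5 for 9, E17.5 for 9, E18.5 for 4, E19.5 for 1 and PN0 for 1. Fmo1, Fmo2, Ces1d, Cyp2f2, Cyp2s1, Ephx1 and Sult1a1 differed by E16.5 in both strains, and Cyp2b10, Cyp2e1, Fmo5 and Gstm1 by E17.5. Gsta3, Ces1e and Cyp4f18 followed at E18.5 in both, and Cyp1a1 in A/J and Cyp3a13 in B6 only at PN0. Cyp2e1 in A/J climbed through all fetal times, with means of 5.25, 5.60, 6.59, 7.69, 8.79 and 8.96 from E15.5 to E20.5.

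Members of 1 gene cluster differed in their measured change. In the RefSeq gene order of build GRCm38.p6, Fmo4, Fmo1 and Fmo2 lie in this order on chromosome 1, and the PN0 to E15.5 differences in B6 were 0.38, 2.31 and 3.75. In A/J they were 0.77, 3.94 and 3.94. Fmo9 lies on the same chromosome but 90 genes away. Of the 7 Ces1 genes in a row on chromosome 8, Ces1d and Ces1e rose. Ces1f next to them was lower in A/J, a call that leaving out a single replicate could undo, as given above. Ces1a, Ces1b, Ces1c and Ces1g were not called. Their differences were 0.43, 0.24, 0.27 and 0.20 in B6 and 0.14, -0.13, 0.20 and -0.03 in A/J. On chromosome 3 Gstm5, which fell, and Gstm1 and Gstm3, which rose, share a cluster with Gstm2, Gstm4, Gstm6 and Gstm7, whose differences lay between -0.28 (Gstm7) and 0.41 (Gstm6) in B6. On chromosome 7 Cyp2f2 rose while its neighbour Cyp2t4 differed by 0.21 in B6 and -0.17 in A/J, and Cyp2b10 rose while Cyp2b13, Cyp2b9, Cyp2b23 and Cyp2b19 differed by -0.03 to 0.24 over both strains. Ces1a, Ces1c, Ces1g, Gstm6, Cyp2t4, Cyp2b13, Cyp2b9, Cyp2b23 and Cyp2b19 gave mean signals below the 25th percentile of the tested probe sets. Their small differences thus do not show that these genes stayed level. Genes of these families resemble each other, and whether their probes also bound RNA of a neighbour was not examined.

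Sequence before the start site was read for the genes with a RefSeq promoter, which was 19 of the 22 genes higher in both strains, with 22 promoters. The 250 bases before the start were searched on both strands for GCGTG, the core of the aryl hydrocarbon receptor element, for TGACNNNGC, the antioxidant response element, for TTNNGNAA, a site of C/EBP factors, for TGTTTNC, a site of FOXA factors, and for CTCAAG, a site of NKX2-1. GCGTG occurred in 4 of the 22 promoters (18.2%, beside 28.2% of all 32851 promoters), TGACNNNGC in 2 (9.09%, beside 10.2%), TTNNGNAA in 7 (31.8%, beside 36.8%), TGTTTNC in 4 (18.2%, beside 17.8%) and CTCAAG in 0 (beside 13.3%). Only the share with TGTTTNC was above that of all promoters, and only slightly. Of the 104 promoters of the other members, 15.4% held GCGTG, 2.88% TGACNNNGC, 49.0% TTNNGNAA, 21.2% TGTTTNC and 13.5% CTCAAG. Promoters of the gene with the largest rise, of Cyp1a1, Gsta3 and the falling Gstm5 are shown 5′ to 3′ with the matches in capitals. Cyp1a1 is the receptor target, and Gsta3 was higher at PN0 than at the last fetal time in both strains. Sequences are from RefSeq on build GRCm38.p6. Fmo2 has 2 start sites, at chr1:162898759-162899008 and chr1:162898494-162898743 on the minus strand, Cyp1a1 lies at chr9:57697363-57697612, Gsta3 at chr1:21240335-21240584 and Gstm5 at chr3:107895604-107895853, all on the plus strand.
Fmo2, first start: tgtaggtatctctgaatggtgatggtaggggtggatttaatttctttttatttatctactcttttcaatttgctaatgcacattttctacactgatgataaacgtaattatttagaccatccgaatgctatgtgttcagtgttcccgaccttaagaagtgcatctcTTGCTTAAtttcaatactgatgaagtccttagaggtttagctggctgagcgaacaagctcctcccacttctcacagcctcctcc
Fmo2, second start: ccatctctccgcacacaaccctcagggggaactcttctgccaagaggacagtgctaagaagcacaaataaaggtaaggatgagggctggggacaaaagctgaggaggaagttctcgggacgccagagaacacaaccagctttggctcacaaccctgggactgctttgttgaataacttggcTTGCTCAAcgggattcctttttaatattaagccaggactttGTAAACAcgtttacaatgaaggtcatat
Cyp1a1: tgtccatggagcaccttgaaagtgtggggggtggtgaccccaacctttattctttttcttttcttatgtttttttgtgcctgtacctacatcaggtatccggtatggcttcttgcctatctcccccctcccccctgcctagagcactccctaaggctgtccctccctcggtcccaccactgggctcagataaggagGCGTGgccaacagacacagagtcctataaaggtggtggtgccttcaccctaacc
Gsta3: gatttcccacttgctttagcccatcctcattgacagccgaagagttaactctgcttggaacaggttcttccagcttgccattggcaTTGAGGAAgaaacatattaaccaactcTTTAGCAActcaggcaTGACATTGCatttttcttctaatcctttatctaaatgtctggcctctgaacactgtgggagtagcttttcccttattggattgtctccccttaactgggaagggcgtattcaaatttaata
Gstm5: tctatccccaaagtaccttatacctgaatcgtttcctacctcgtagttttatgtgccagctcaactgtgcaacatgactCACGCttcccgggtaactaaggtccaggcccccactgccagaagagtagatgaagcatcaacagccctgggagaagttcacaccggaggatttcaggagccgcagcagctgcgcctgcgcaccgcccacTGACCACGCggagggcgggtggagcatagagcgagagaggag
The capitals in the first Fmo2 promoter mark a C/EBP match 84 to 77 bases before the start. In the second they mark a C/EBP match 69 to 62 bases and a FOXA match 28 to 22 bases before it. Cyp1a1 holds GCGTG 54 to 50 bases before its start. Gsta3 holds C/EBP matches at 164 to 157 and 137 to 130 bases and an antioxidant response element at 121 to 113. Gstm5 holds the reverse of GCGTG at 171 to 167 and 38 to 34 bases, and the nearer one overlaps an antioxidant response element at 42 to 34. These are matches of letters and were not tested as binding sites.

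Around birth few of the enzyme genes were called. Leaving out each replicate in turn gave 3 to 5 genes in each strain, so no difference from the share of all probe sets is drawn. In A/J, PN0 lungs were compared with E20.5 lungs, the last fetal time. There 4 of 126 genes were called (3.17%, beside 4.03% of all probe sets), Cyp1a1 and Gsta3 higher and Cyp2e1 and Sult1a1 lower. Replicates 2 and 3 of E20.5 and replicate 2 of PN0 had the higher esophagus markers, whose part in these calls was not tested. Cyp2e1 read 6.77, 6.95 and 6.75 at PN0, against 9.42, 8.52 and 8.93 at E20.5. All PN0 replicates lay far below, and Cyp2e1 fell by 2.13 on the log2 scale (SE 0.17, 4.39-fold, adjusted p = 1.2e-10). In B6, where the last fetal time was E18.5, Cyp2e1 read 7.55, 7.25 and 7.39 at PN0, against 7.95, 7.82 and 8.0 at E18.5. The groups did not overlap, but the difference of -0.53 (SE 0.17, adjusted p = 0.017) missed 1.5-fold. Sult1a1 fell by 0.59 in A/J (SE 0.18, adjusted p = 0.018), with 8.61, 8.45 and 8.38 at PN0 against 9.01, 9.07 and 9.12 at E20.5, a call that was lost when replicate 3 of E20.5 or replicate 2 or 3 of PN0 was left out.

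Cyp1a1 read 6.02, 5.46 and 5.66 in A/J at PN0, against 4.89, 4.76 and 4.78 at E20.5. At every fetal time its A/J replicates lay between 4.49 and 4.97, so that PN0 stood alone. Cyp1a1 rose by 0.90 in A/J (SE 0.16, 1.87-fold, adjusted p = 0.00012). Cyp1a1, like Cyp3a13, gave a mean signal below the 25th percentile of the tested probe sets. A level fetal course at such signals does not show that the gene was unchanged before birth. In B6, Cyp1a1 read 5.56, 4.88 and 5.83 at PN0, against 4.88, 5.08 and 4.58 at E18.5. Replicate 2 of PN0 lay within the fetal range, and the difference of 0.58 (SE 0.16, adjusted p = 0.007) missed 1.5-fold. Its neighbour Cyp1a2 differed by -0.02 in A/J and 0.02 in B6, and Cyp1b1 by 0.13 and 0.43, without a call. Of the receptor's other genes, Ahrr differed by -0.07 in A/J and 0.08 in B6 and Nqo1 by 0.37 and 0.34, and none of these was called. Tiparp differed by 0.19 in A/J and rose by 0.65 in B6.

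Gsta3 read 8.12, 8.31 and 7.98 in A/J at PN0, against 7.10, 7.35 and 7.42 at E20.5. In B6 it read 7.65, 7.69 and 7.99 at PN0, against 6.72, 6.64 and 7.18 at E18.5. PN0 was above the last fetal time in every replicate of both strains, and Gsta3 rose by 0.85 in A/J (SE 0.14, adjusted p = 4.4e-05) and 0.93 in B6 (SE 0.14, adjusted p = 6.9e-06). In B6, 3 of 126 genes were called between PN0 and E18.5, all higher (2.38%, beside 3% of all probe sets higher and 6.37% called either way). These were Gsta3, Cyp4b1 and Cyp3a13. Cyp4b1 rose by 0.68 (SE 0.16, adjusted p = 0.002), and the call was lost without replicate 2 of E18.5. Cyp3a13, a P450 of intestine and liver, read 5.58, 5.43 and 5.38 in B6 at PN0, against 4.47, 4.64 and 4.91 at E18.5. It rose by 0.79 (SE 0.11, 1.73-fold, adjusted p = 3.8e-06), whereas the A/J readings were 4.57, 4.83 and 4.61 at PN0, against 4.46, 4.62 and 4.88 at E20.5, with overlapping replicates and a difference of 0.02. The mean of the 16 liver markers was 5.71 to 5.91 in B6 at PN0 and 5.40 to 5.77 at E18.5, and 5.28 to 5.40 in A/J at PN0, and its part in the Cyp3a13 values was not tested. The last fetal times of the strains lie at different distances from birth, so these differences are not compared between them. By the paper, the last fetal time lay a few hours before PN0 in A/J but a day before it in B6. In B6 a change at birth thus cannot be told from a late fetal change.

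**Figure D3:**
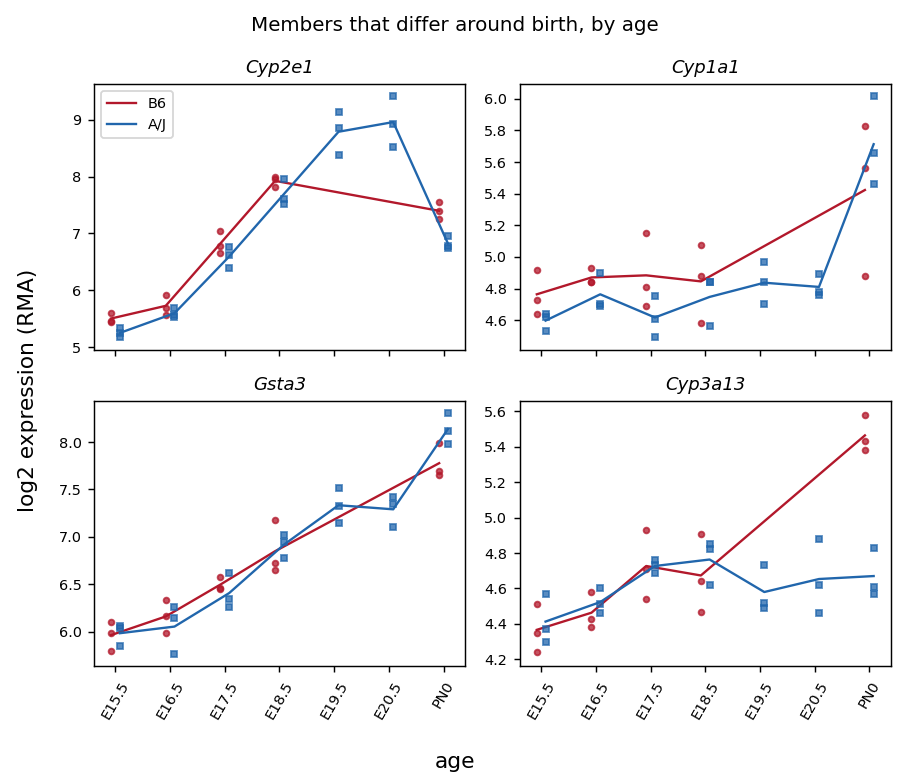
Log2 expression by age of Cyp2e1, Cyp1a1, Gsta3 and Cyp3a13, with replicates as points (B6 red circles, A/J blue squares) and lines through the group means. In A/J, Cyp2e1 climbs to a mean of 8.96 at E20.5 and lies at 6.82 at PN0, and Cyp1a1 and, in B6, Cyp3a13 leave their fetal range at PN0 alone.

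Between the strains few enzyme genes differed, and Gsta4 differed most often. The count of the 126 genes called was 1 at E15.5 (0.794%, beside 0.863% of all probe sets). It was 3 at E16.5 (2.38%, beside 1.18%) and 3 at E17.5 (2.38%, beside 1.75%). It was 4 at E18.5 (3.17%, beside 4.05%) and 6 at PN0 (4.76%, beside 4.08%). These counts are small. Leaving out each replicate in turn gave 1 to 4 at E16.5 and 5 to 8 at PN0. No difference from the shares of all probe sets is therefore drawn. Gsta4, an alpha class enzyme that conjugates 4-hydroxynonenal, a product of lipid peroxidation, was lower in B6 at 4 of the 5 shared times. At E15.5 it read 9.13, 9.26 and 8.98 in B6, against 9.86, 9.94 and 9.96 in A/J. At E18.5 it read 9.74, 9.70 and 9.53 in B6, against 10.74, 10.86 and 10.80 in A/J. The strains did not overlap before birth. Gsta4 was lower in B6 by -0.80 (adjusted p = 1.6e-07) in the E15.5 lungs, by -0.60 (adjusted p = 2.5e-05) in the E16.5 lungs, by -1.11 (adjusted p = 1.2e-10) in the E17.5 lungs and by -1.15 (adjusted p = 5.5e-11) in the E18.5 lungs, each with an SE of 0.08. The call at E16.5 lay close to 1.5-fold and was lost without replicate 2 or 3 of A/J or replicate 3 of B6. At PN0 it read 9.84, 10.06 and 9.97 in B6, against 9.90, 10.17 and 9.98 in A/J, which overlap and differ by -0.06 (adjusted p = 0.69). Gsta4 of A/J peaked at E18.5 with a mean of 10.80 and lay at 10.02 at PN0, whereas that of B6 lay at 9.65 at E18.5 and 9.96 at PN0.

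Fmo1 had the largest single strain difference. In B6 it was lower by -0.75 at E17.5 (SE 0.14, adjusted p = 0.00085) and -1.64 at PN0 (SE 0.14, 3.11-fold, adjusted p = 1.5e-09), while at E15.5 the strains were level at 7.45 in B6 and 7.46 in A/J. At E18.5 its difference of -0.49 (adjusted p = 0.01) missed 1.5-fold. Also lower in B6 at PN0 were Cyp4b1 by -0.84, Cyp2b10 by -0.65 and Cyp2f2 by -0.64, of which Cyp2f2 lost its call without replicate 1 of B6 at PN0 and Cyp2b10 when the arrays were quantile normalized again. Higher in B6 at PN0 were Cyp3a13 by 0.79 and Cyp2r1, the vitamin D 25-hydroxylase, by 0.61. Cyp2r1 was higher in B6 also at E17.5, by 0.62, and lay between 0.38 and 0.58 at the other times. Its signal was low in both strains, with 4.35, 4.46 and 4.49 in B6 against 3.69, 3.99 and 3.78 in A/J at PN0, and its calls were lost without replicate 3 of B6 at E17.5 and without replicate 1 of A/J at PN0. Strain comparisons at PN0 set B6 lungs against A/J lungs of a longer gestation.

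**Figure D4:**
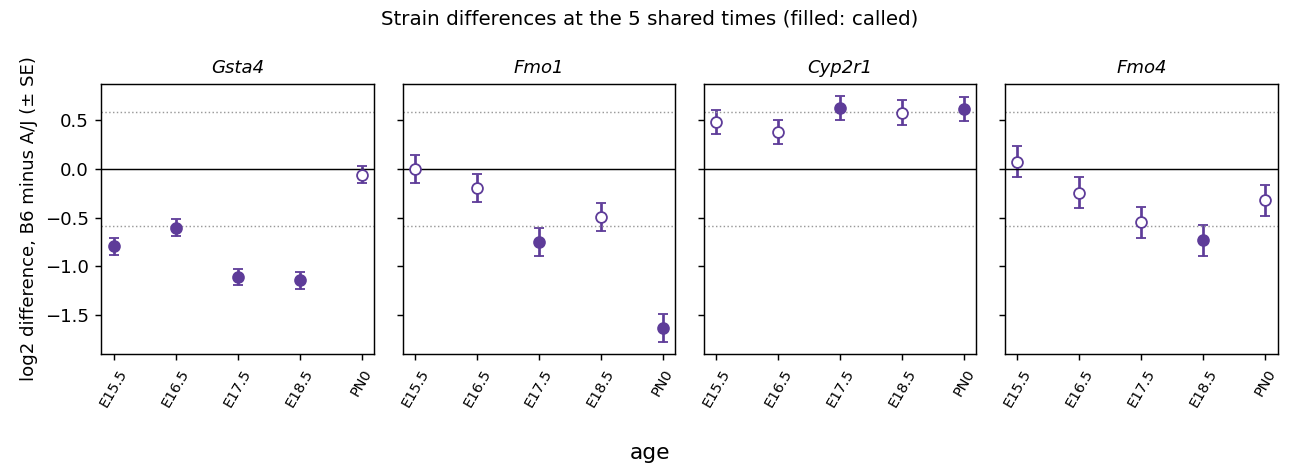
Log2 difference of B6 minus A/J (± SE) at the 5 shared times for Gsta4, Fmo1, Cyp2r1 and Fmo4, with called values filled and dotted lines at 1.5-fold. Gsta4 lies between -0.60 and -1.15 before birth and at -0.06 at PN0, and Fmo1 reaches -1.64 at PN0.

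Before birth, Fmo2 and Sult1a1 were higher in B6 at E16.5, by 0.79 (adjusted p = 0.004) and 0.85 (adjusted p = 0.0038), and the call of Fmo2 was lost without replicate 3 of A/J at E16.5. At E18.5 Fmo4 was lower in B6 by -0.73 (adjusted p = 0.001) and Gstm6 by -0.64 (adjusted p = 0.012), and Cyp2d11 was higher by 0.63 (adjusted p = 0.024). Gstm6 and Cyp2d11 each lost the call when replicate 2 of A/J was left out, and also without replicate 3 of A/J for Gstm6 and replicate 3 of B6 for Cyp2d11. At this time the mean of the 10 esophagus and upper airway markers was 5.69 to 6.14 in B6 and 6.84 to 7.11 in A/J, and the median difference of all probe sets was -0.13, so that B6 values were lower across the array. With each array centred on its median, Fmo4 (-0.64, adjusted p = 0.0061), Cyp2d11 (0.72, adjusted p = 0.017) and Gsta4 kept the call, and Gstm6 lost it (-0.55, adjusted p = 0.044, under 1.5-fold). The part of the marker difference in these calls was not tested.

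Lungs a day before each strain's birth, which is E18.5 for B6 and E19.5 for A/J, differed in 5 of 126 genes. All 5 were lower in B6 (3.97%, beside 1.23% of all probe sets lower and 2.36% called either way). Replicate 2 of A/J at E19.5 was high in liver and in esophagus markers. Fmo1 was lower in B6 by -1.02 (SE 0.14, adjusted p = 1.1e-05), Cyp4b1 by -0.99 (SE 0.16, adjusted p = 0.0001), Cyp2e1 by -0.86 (SE 0.17, adjusted p = 0.00068), Gsta4 by -0.69 (SE 0.08, adjusted p = 1.4e-06) and Gstm1 by -0.67 (SE 0.11, adjusted p = 7.6e-05). Cyp4b1 read 9.27, 8.57 and 9.37 in B6 at E18.5, against 10.18, 10.05 and 9.97 in A/J at E19.5, without overlap. Gstm1 lost its call without replicate 2 of B6 or replicate 1 of A/J, and without replicate 3 of B6 the count was 8 genes.

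The change between E15.5 and E18.5 was smaller in B6 than in A/J for 4 of 126 genes. This was 3.17%, beside 2.33% of all probe sets with a negative difference called and 2.86% called either way. These were Fmo4 (difference of the changes -0.81, SE 0.23, adjusted p = 0.03), Cyp2s1 (-0.80, SE 0.15, adjusted p = 0.0016), Sult5a1 (-0.76, SE 0.22, adjusted p = 0.036) and Cyp2d22 (-0.74, SE 0.21, adjusted p = 0.032). Cyp2s1 read 8.24, 8.60 and 8.43 in B6 at E18.5, against 7.07, 7.23 and 7.29 at E15.5. In A/J it read 9.05, 8.70 and 8.88 at E18.5, against 6.92, 6.73 and 6.91 at E15.5. Cyp2s1 thus rose by 1.23 in B6 and 2.02 in A/J, and at E18.5 every B6 replicate lay below every A/J replicate. Fmo4 read 5.57, 5.93 and 5.69 in B6 at E18.5, against 5.13, 5.52 and 5.46 at E15.5, and in A/J 6.07, 6.62 and 6.70 at E18.5, against 4.87, 5.39 and 5.63 at E15.5. The strains overlapped at E15.5 and not at E18.5. Sult5a1 read 7.53, 7.20 and 7.64 in B6 at E18.5, against 5.94, 6.48 and 6.27 at E15.5, and in A/J 8.02, 7.64 and 8.35 at E18.5, against 5.78, 6.05 and 6.23. Cyp2d22 read 8.75, 8.79 and 8.58 in B6 at E18.5, against 7.82, 7.97 and 7.84 at E15.5, and in A/J 9.23, 8.66 and 9.48 at E18.5, against 7.68, 7.68 and 7.31. Sult5a1 rose by 1.23 in B6 and 1.98 in A/J and Cyp2d22 by 0.83 and 1.57, while the strains touched or overlapped at E18.5. The median of this difference over all probe sets was -0.11 and that of the 126 genes -0.12, and when each array was centred on its median only 1 of the 4 genes stayed called, Cyp2s1.

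Genes that accompany these enzymes were read from lists of known roles. Shares are set beside the 12.7% in B6 and 13.7% in A/J of all probe sets that rose. Of 6 partners that bring electrons or heme to P450s, 5 rose in each strain (83.3%), among them Alas1, the first enzyme of heme synthesis, by 0.95 in B6 and 1.38 in A/J, and Cyb5r3 by 0.88 and 1.12. Of 13 regulators, 3 rose in B6 (23.1%) and 2 in A/J (15.4%, close to the 13.7% of all probe sets), and none was called lower. Cebpa, a C/EBP factor of lung and liver epithelium, rose by 1.97 in B6 and 1.65 in A/J, and Ahr, the aryl hydrocarbon receptor, by 0.93 and 1.18, whereas Nr1i2 and Nr1i3, the receptors that drive Cyp3a and Cyp2b genes in liver, differed by 0.20 and -0.04 in B6 and by 0.03 and -0.03 in A/J. Of 13 genes of glutathione handling, 4 rose (30.8%) and 1 fell in B6 and 6 rose (46.2%) and 1 fell in A/J. Gclc, the rate-limiting enzyme of glutathione synthesis, rose by 2.24 in B6 and 0.82 in A/J, and Gclc was higher in B6 at PN0 by 1.33.

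Of 29 further enzymes of the same pathways, 13 rose (44.8%) and 3 fell in B6, and 16 rose (55.2%) and 3 fell in A/J. Inmt, which methylates indoles and is abundant in lung, rose by 6.97 in B6 and 6.71 in A/J, Akr1c14 by 5.46 and 5.86 and Cbr2, a carbonyl reductase of lung, by 4.69 and 4.37. Of 9 transporters, 2 rose in B6 (22.2%) and 3 in A/J (33.3%), led by the prostaglandin transporter Slco2a1 with 2.77 and 2.96. Of 10 club cell markers, 8 rose and 1 fell in each strain, with means over the list of 10.1 to 10.2 in B6 at PN0 against 7.09 to 7.29 at E15.5, and 10.1 to 10.3 in A/J at PN0 against 7.07 to 7.33. Of 10 type II cell markers, 9 rose in each strain and 1 fell in A/J, and of 10 endothelial markers 7 rose in B6 and 9 in A/J. Of 10 ciliated cell markers 5 rose in B6 and 7 in A/J. Mesenchymal markers went both ways, with 3 of 10 higher and 6 lower in B6 (median -0.79) and 3 higher and 4 lower in A/J (median -0.36). Of the 16 liver markers 1 was lower in B6, and none was called in A/J. The part of these cell types in the rise of the enzyme genes was not tested.

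Most of the 126 genes gave weak signals. The mean signal over all groups was below the 25th percentile of the tested probe sets for 78 of them, between that and the median for 25 and at or above the median for 23. This mean includes the groups in which a gene is high, so that counts of rising genes are not compared between these classes. At or above the median, 7 genes were called in neither direction between E15.5 and PN0, namely Cyp2j6, Cyp4f16, Gstm2, Gstm4, Gstp1, Gstt1 and Gstt2. In all, 89 of the 126 genes were called in no comparison, and a probe set at the floor of the array cannot show whether its gene was silent or only low.

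The 3 genes set aside were high in replicate 2 of A/J at E19.5, in which the liver markers and the esophagus markers were both high. Gsto1, an omega class glutathione S-transferase, read 8.59, 9.69 and 8.64 there. Cyp4a14, a fatty acid hydroxylase of liver, read 4.0, 4.97 and 4.10, and Ces2b read 5.0, 5.76 and 5.13. Gsto1 stood 1.05 above the nearest replicate, Cyp4a14 0.87 and Ces2b 0.63, and Cyp4a10, with 0.58, was just under the limit of 1.5-fold. In another liver-rich replicate, replicate 1 of A/J at E15.5, Ces1c was also just under it, with 0.56. Gsto1 was also high in replicate 2 of A/J at PN0, with 8.86, 9.89 and 8.91, and in replicates 2 and 3 at E20.5, with 8.57, 9.28 and 9.41, the replicates with the higher esophagus markers in those groups. Gsto1 was called higher at PN0 than at E15.5 in both strains, by 0.93 in B6 and 1.28 in A/J, and is left out of the counts above. With the genes set aside counted too, 25 genes were higher in B6 and 26 in A/J. In B6 Gsto1 read 9.49, 9.36 and 9.53 at PN0, against 8.63, 8.60 and 8.37 at E15.5, while the esophagus markers averaged 5.96 to 6.05 at PN0 and 5.80 to 6.21 at E15.5.

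**Figure D5:**
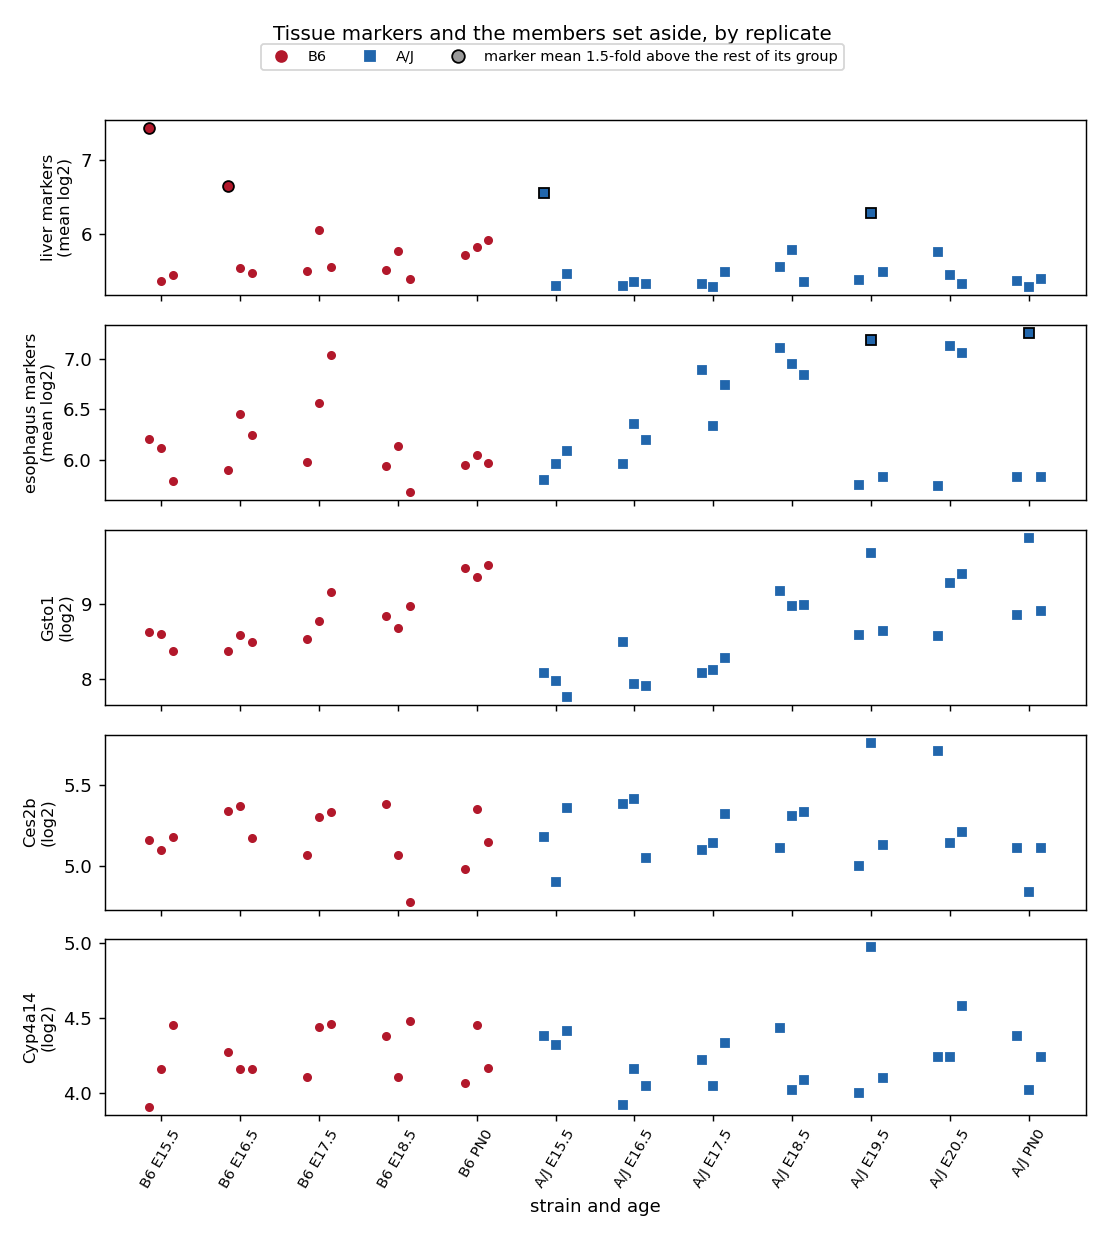
Mean log2 signal of the liver and of the esophagus markers, and log2 signal of Gsto1, Ces2b and Cyp4a14, in each of the 36 replicates by strain and age (B6 red circles, left, and A/J blue squares, right). Outlined points are marker means at least 1.5-fold above the rest of their group, and replicate 2 of A/J at E19.5 is the high point in all 5 panels for its group.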

How the data were processed

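RNA of pooled right lungs was hybridised to Affymetrix arrays, and per the labels the authors normalized them with RMA in Expression Console 1.1, whose log2 values were deposited and used unchanged. The table held 37 arrays. B6 at E18.5 had an extra array, titled 2b. Over all probe sets it correlated with arrays 1, 2 and 3 with r of 0.983, 0.988 and 0.982 (a description across genes), and it was averaged with array 2, which left 36 replicates. Of 35556 probe sets, 21789 named 1 gene by the platform table, 1621 several and 12146 none. A gene with more than 1 probe set was represented by its brightest.

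Group means were fitted to all 36 replicates with limma 3.58.1 (R 4.3.3) (24 residual degrees of freedom, prior 6.13), with p adjusted by Benjamini-Hochberg over all 21789 probe sets. The study's own Bayesian model of time courses was not run, and limma's F test was used. Replicates were litter pools, so p-values measure the spread between litters. The number of arrays limits the precision. Liver genes were set aside where a replicate with liver markers at least 1.5-fold above its group carried them by as much. Values in every replicate were given for the genes with the largest change in both strains and for those called in the interaction or at birth in A/J, and Gsta4 as the 1 gene called between strains at 3 or more times. From each pathway list up to 3 genes with the largest change were named. Cyp3a13, Cyp2r1, Fmo1 between strains, Nr1i2 and Nr1i3 were added after their values were seen. Genes and lists were chosen with earlier results of these data known. Promoters came from RefSeq tables and were searched in Python 3.11.15, and figures used matplotlib 3.10.9. Equal replicate numbers gave no sign of a shared litter or batch. Over 198 pairs of equally numbered replicates of different groups the deviations correlated with a median r of -0.015 (-0.413 to 0.389), and 30 pairs were over 0.1. Over 396 pairs of other numbers the median r was 0.004, and 69 pairs were over 0.1. A batch that does not follow the replicate numbers cannot be seen in this way and was not examined. Sequence differences between the strains under the probes were not examined. Alternatives covered scaling, probe sets tested, dim probe sets, empirical Bayes settings, samples, array 2b, thresholds, tissue-rich replicates and each replicate in turn.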

Additional observations from a re-analysis of the deposited data

Results flagged for a closer look

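The change between E15.5 and E18.5 differed between the strains by limma's interaction contrast for 4 genes, all with a smaller change in B6. The difference of the changes, B6 minus A/J, was -0.738 for Cyp2d22, -0.797 for Cyp2s1, -0.807 for Fmo4 and -0.758 for Sult5a1. Its median over all probe sets was -0.11, and only Cyp2s1 stayed called when each array was centred on its median. Dixon's test for outlying values was not run, since groups had 3 replicates.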

How the results depend on the processing

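Of 225 counts under the alternatives other than leaving out each replicate in turn, 206 stayed within 1.5 times. With at least 2-fold required (4-fold over time), 12 genes changed over time in A/J and 9 in B6, 1 was lower at PN0 in A/J, and the strains differed in 0 genes at E15.5 and at E16.5, 1 each at E17.5, E18.5 and PN0, and 1 in lungs a day before birth. Between PN0 and the last fetal time 1 gene was then called in A/J and 0 in B6, and 0 in the interaction. The interaction held 1 gene with arrays centred on their median, with arrays quantile normalized again, with only the groups compared in the fit and with liver-high replicates left out. With dim probe sets left out, 2 genes differed at E18.5. With array 2 left out and 2b kept, 5 differed between PN0 and E18.5 in B6. Without the 2 replicates high in esophagus markers by the 1.5-fold rule, a setting chosen after seeing the data, 1 gene was lower at PN0 in A/J. A replicate block changed no count: 25 and 20 genes over time in A/J and B6, and 25 and 24 higher at PN0.

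Leaving out each replicate in turn gave 24 to 26 genes over time in A/J and 19 to 21 in B6, 24 to 25 higher at PN0 in A/J and 23 to 25 in B6, and 1 to 2 lower in A/J and 1 in B6. Strain counts were 1 at E15.5, 1 to 4 at E16.5, 3 to 5 at E17.5, 4 to 5 at E18.5, 5 to 8 at PN0 and 5 to 8 a day before birth. Counts between PN0 and the last fetal time were 3 to 5 in B6 and 3 to 5 in A/J, and those in the interaction 1 to 4. Without A/J replicate 3, E16.5 gave 1 and E17.5 gave 5, and without B6 replicate 1 at PN0 the count of B6 between PN0 and the last fetal time was 5. The lower count of A/J was 1 without replicate 2 of E15.5 or of PN0. The interaction was 2 without A/J E15.5 replicate 1, A/J E18.5 replicate 3, B6 E15.5 replicate 2 or B6 E18.5 replicate 3, and 1 without B6 E18.5 replicate 1. With the thresholds kept, the 85 called values had 3910 values under other scaling, fits and samples or without a replicate, of which 0 reversed, and 18 lost the call in at least 1, 71 times in all. The 2-fold threshold was applied to the counts. The cause was not tested.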
